A study of Mus musculus with 73 samples.

Results

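The 8 enhancer fragments taken from the *Nanog* locus of the mouse were described here by the promoter they were tested with, by their position and orientation in the reporter, and by the pairs they formed with each other. Members were all combinations of the deposited table in which 1 fragment carries a name beginning with Nanog_E and the other is a control, and those in which both fragments do. They comprise 8 of the 59 enhancer fragments measured, 3921 enhancer-control (EC) combinations and 694 combinations of 2 *Nanog* fragments, out of 110180 combinations in all. No fragment was measured in combination with itself.

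The series is a massively parallel reporter assay in which plasmids carry a promoter, a barcoded reporter and, behind it, 2 DNA fragments in either order and orientation, so that every barcode in the RNA reports on 1 enhancer-enhancer-promoter combination. Each of 8 promoter libraries, *Sox2*, *Klf2*, *Otx2*, *Fgf5*, *Lefty1*, *Nanog*, *Ap1m1* and *Tbx3*, was transfected transiently into E14TG2a mouse embryonic stem cells (mESCs) in 3 biological replicates, and RNA was collected after 24 hours. The cells, an established line kept in medium with 2i (a pair of inhibitors of differentiation signals) and LIF, are the same in every group. Activity is the ratio of barcode counts in cDNA to those in plasmid DNA, and the boost index is the log2 of the median activity over the baseline of the library, which is the median of its control-control (CC) combinations.

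*Nanog* encodes a homeodomain transcription factor that holds embryonic stem cells in the naive state, together with Oct4 (*Pou5f1*), Sox2 and other factors. Enhancers are stretches of DNA bound by such factors that raise transcription from a promoter, often over a distance, and several of them commonly form a cluster around 1 gene. The *Nanog* gene lies in a region shared with other genes of early development, such as *Dppa3*, and has clusters of enhancers both upstream and downstream that are bound by pluripotency factors in these cells.

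All fragments are intervals of 450 bp on chromosome 6 of mm10, and *Nanog* runs from 122707489 to 122714633 on the plus strand in the RefSeq annotation of the same build. E064 (122662794 to 122663243) and E065 (122663801 to 122664250) have their centres at -44.47 and -43.46 kb from the start of *Nanog*, in DNA without an annotated gene, with 557 bp between them. E071 (122694974 to 122695423) is at -12.29 kb, also outside genes. E073 (122702446 to 122702895) and E074 (122702830 to 122703279) are at -4.82 and -4.43 kb. As listed intervals they share 66 bp, from 122702830 to 122702895. E088 (122765015 to 122765464), E089 (122766246 to 122766695) and E090 (122770251 to 122770700) are 57.75, 58.98 and 62.99 kb downstream of the same start, inside the body of *Slc2a3*, which encodes a glucose transporter. Whether they cover an exon or an intron of it was not examined here.

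The fragments were amplified from genomic DNA with 1 primer pair each. The study's methods place the primers in the ends of each interval, so the amplified products are shorter than 450 bp. How much of the 66 bp the cloned products of E073 and E074 share was not determined. The primers of E073 and E074, whose intervals overlap, and of E064 and E065, which lie 557 bp apart, are shown 5′ to 3′ in lower case, with no base marked.
E073 forward: aattgttaacctgctggaatttccttc
E073 reverse: gtcaaaggagtctgcttaggagac
E074 forward: ccctgtaccaaacctttgtagaacttg
E074 reverse: ggatacaaagcccagcaaactacc
E064 forward: ctcagcaccctcacctctctc
E064 reverse: cttgtttctagcgagtggattgtctc
E065 forward: tggcgacagtaaacataattagctgac
E065 reverse: caaagagtccagaagaaaggctaaagg

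The promoter fragment of *Nanog*, the one promoter that shares the locus of these enhancers, spans 122707114 to 122707563. The 250 bases before the RefSeq start of the gene, chr6:122707239-122707488 on the plus strand of GRCm38.p6, are shown to introduce the promoter against which the own-locus comparison below was made, with the letters of an octamer core (TTTGCAT) and a Sox core (ACAATG) in capitals.
Nanog promoter: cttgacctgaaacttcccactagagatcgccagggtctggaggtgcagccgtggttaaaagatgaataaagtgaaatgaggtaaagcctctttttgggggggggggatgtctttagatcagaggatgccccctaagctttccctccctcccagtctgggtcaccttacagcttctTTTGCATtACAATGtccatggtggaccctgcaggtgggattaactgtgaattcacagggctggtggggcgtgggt
Both matches lie on the plus strand, at -75 to -69 and -67 to -62 relative to the start, and do not overlap. On either strand, 4.12% of 32851 RefSeq promoter windows of the same length hold the octamer core and 10.7% the Sox core.

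The baselines of the libraries ranged from 0.0866 with *Lefty1* to 0.587 with *Ap1m1*, and rested on 219 to 477 CC combinations above 0 except with *Fgf5*, where 23 of 60 were above 0. The numbers of barcodes behind each activity are not part of the table, so the depth is unknown. Coverage of the *Nanog* fragments was uneven. E064 had 1222 EC combinations above 0, at least 111 per library, whereas E089 had 39, of which 35 were with *Klf2*. E073 was not measured with *Fgf5*, and with this promoter E071 rested on 2 EC combinations, E065 on 4 and E088 on 7.

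Most *Nanog* fragments raised the activity of most promoters. Of 58 fragment-promoter values, 51 were higher than the CC combinations at a 1% FDR, 1 was lower and 6 were not called (two-sided exact rank-sum test). Over all fragments of all loci, 87.6% of 451 values were called higher and 1.77% lower, so the share among *Nanog* fragments is close to that background. The combinations of a fragment share the same 3 transfections, and the test therefore measures the spread between plasmids, not between transfections.

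E073, E074, E090 and E064 were the strong fragments of the locus. With *Sox2*, *Lefty1* and *Tbx3*, whose baselines were 0.0866 to 0.171, their boost indices were 3.33 to 4.54, or 10.0- to 23.3-fold. With *Klf2*, *Otx2* and *Nanog*, with baselines of 0.324 to 0.408, they were 1.36 to 2.29, and with *Ap1m1* 0.26 to 0.90. The baseline is the denominator of the boost index, and its part in these differences was not tested.

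E073 had the highest boost index of the 7 regularly measured *Nanog* fragments in 6 of its 7 libraries. With *Lefty1* its replicates were 4.48, 4.51 and 4.52, with a boost index of 4.54 from 59 EC combinations. With *Nanog* they were 2.12, 2.54 and 2.17 (boost index 2.29), and with *Ap1m1* 0.71, 0.82 and 0.65 (boost index 0.76). The replicates of these 3 promoters do not overlap. Ranked by the mean over libraries among the 57 fragments measured in at least 6 of them, E073 had rank 3, E074 rank 8, E090 rank 9 and E064 rank 10. The mean of E073 is over 7 libraries without *Fgf5*, and those of the other 3 are over all 8, so these ranks compare unlike sets of promoters.

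E074, whose listed interval shares its first 66 bp with the end of that of E073, followed E073 closely with the weakly active promoters. Its replicates with *Sox2* were 4.14, 4.05 and 4.00, inside the range of 3.93 to 4.29 of E073. With *Lefty1* they were 3.86, 4.25 and 4.10, all below those of E073. With *Ap1m1* they were 0.14, 0.49 and 0.24, and the boost index of 0.26 (1.20-fold) was above only that of E065.

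E090, from the downstream group, was the fragment with the highest boost index with *Ap1m1*. Its replicates there were 0.83, 0.99 and 0.78 (boost index 0.90), overlapping those of E073. With *Nanog* they were 1.78, 1.96 and 1.87, and with *Lefty1* 3.66, 3.63 and 3.75. With *Fgf5*, where 13 EC combinations were measured, they spread from 1.38 to 3.27.

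E064 had the most combinations and a boost index of 3.57 both with *Sox2* and with *Lefty1*. Its replicates were 3.47, 3.41 and 3.68 with *Lefty1*, 1.43, 1.68 and 1.54 with *Nanog* and 0.26, 0.46 and 0.31 with *Ap1m1*. The replicates of these 3 promoters do not overlap, and all 8 promoters were called higher than controls.

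E071 and E088 were of intermediate strength. With *Sox2*, *Lefty1* and *Tbx3* their boost indices were 1.61 to 2.20, with *Klf2*, *Otx2* and *Nanog* 0.65 to 1.11, and with *Ap1m1* 0.52 for E071 and 0.43 for E088. For E071 the replicates with *Nanog* were 1.01, 1.25 and 0.96, and for E088 they were 0.60, 0.72 and 0.61, with no overlap. With *Lefty1* their replicates overlapped, at 1.59, 1.87 and 1.72 for E071 and 1.90, 1.68 and 1.94 for E088. Neither was called with *Fgf5*.

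E065 was the weakest of the regularly measured fragments in all 8 libraries, although only 557 bp separate it from the strong fragment E064. Its highest boost index was 0.98 with *Sox2* (replicates 1.09, 0.98 and 1.12). With *Klf2* it was 0.25 and just missed the threshold (FDR 0.0109, exact rank-sum test). With *Ap1m1* the replicates were -0.14, -0.18 and -0.17, all below the controls, and the boost index of -0.16 was the 1 value of the locus called lower (FDR 0.00794 by the same exact test). That call was lost without replicate 2 and without replicate 3, and when limma tested the replicates' boost indices.

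E089 can be described with *Klf2* alone, where its replicates were 0.83, 0.84 and 0.79 and it was called higher (boost index 0.86, 35 EC combinations). With *Sox2* it rested on 3 EC combinations and with *Lefty1* on 1, and it was not called with either.

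The *Ap1m1* promoter, from a gene expressed in most cells that encodes a subunit of a clathrin adaptor complex, was compared with the mean of the 7 developmental promoters. Of the 6 *Nanog* fragments measured with all promoters, 5 had a lower boost index with *Ap1m1* at a 5% FDR (limma over 24 library-replicates), while 69.4% of the 49 fragments tested in all loci were called lower and 4.08% higher. The largest difference was that of E074, at 0.29 with *Ap1m1* against 2.85 with the developmental promoters (difference -2.56 ± 0.17 SE, FDR 2.04e-11). E064 had 0.34 against 2.48 (difference -2.13 ± 0.13 SE, FDR 3.98e-12). The median difference over all 49 fragments was -0.60.

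E090 had 0.87 with *Ap1m1* against 2.65 (difference -1.79 ± 0.22 SE, FDR 2.63e-07). For E088 the difference was -0.79 ± 0.12 (SE, FDR 7.37e-06), and for E065 it was -0.60 ± 0.15 (SE, FDR 0.00109), the median of all fragments. E071 had a difference of -0.69 ± 0.33 (SE) and was not called (FDR 0.0670). Without the *Fgf5* library, where E071 had 2 EC combinations, it was -0.81 ± 0.10 (FDR 4.05e-07), in a setting where 47 of 55 fragments of all loci were called lower. E073, which lacks *Fgf5*, could be tested only in that way, and its difference was -2.40 ± 0.13 (SE, FDR 4.90e-13).

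The *Nanog* promoter, which shares the locus of the fragments, was compared with the other developmental promoters in the same way. Of the 6 fragments, 4 were called lower with *Nanog* than the mean of the other 6 developmental promoters and 0 higher. The background was 44.9% lower and 2.04% higher. The differences were -1.30 ± 0.18 (SE) for E074 (FDR 2.61e-06), -1.08 ± 0.13 for E064 (FDR 9.23e-07), -0.91 ± 0.22 for E090 (FDR 0.00182) and -0.65 ± 0.13 for E088 (FDR 0.000224). E065 had a difference of -0.11 ± 0.15 and E071 of -0.14 ± 0.33 (SE), and neither was called. With 1 replicate left out these ranged from -0.24 to -0.016 for E065 and from -0.33 to -0.028 for E071, without a call. The *Nanog* baseline of 0.324 exceeded those of *Sox2*, *Fgf5*, *Lefty1* and *Tbx3* and was below those of *Klf2* and *Otx2*, and its part in the difference was not tested. The strong fragments were not lower with *Nanog* than with *Klf2* and *Otx2*. With *Klf2*, *Otx2* and *Nanog* the boost indices were 1.36, 1.43 and 1.60 for E064 and 1.93, 1.94 and 2.29 for E073. They were 1.59, 1.61 and 1.80 for E074 and 1.61, 1.68 and 1.89 for E090. E065 and E088 had 0.33 and 0.74 with *Otx2* against 0.32 and 0.70 with *Nanog*. Without *Fgf5* all 7 fragments were called lower, as were 41 of 55 fragments of all loci. In that setting E065 had a difference of -0.21 (FDR 0.0250), E071 of -0.29 (FDR 0.0187) and E073 of -1.02 ± 0.13 (SE, FDR 6.28e-07).

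Differences between positions and orientations were small beside those between promoters. Position 1 is taken to be the one nearer the barcode, because the study's methods read it together with the barcode, and position 2 the one behind it. Of the 7 fragments tested over libraries, 2 had a lower boost index in position 2 and 0 a higher one at a 5% FDR (limma), with 32.7% of all 55 fragments called lower and 12.7% higher. E064 was lower in position 2 in 7 of 8 libraries (mean difference -0.23 ± 0.06 SE, FDR 0.00564), from -0.45 with *Lefty1* to 0.03 with *Ap1m1*. With *Lefty1* the replicates differed by -0.43, -0.45 and -0.30.

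E065 was lower in position 2 in 6 of 7 libraries (-0.22 ± 0.08 SE, FDR 0.0442). It was not called without replicate 2 (-0.24, FDR 0.0548) or without replicate 3 (-0.08, FDR 0.465). E090 and E073 had the opposite sign in 6 of 8 and 6 of 7 libraries, by 0.18 ± 0.07 and 0.10 ± 0.06 (SE), and were not called (FDR 0.0596 and 0.144). Without replicate 3 the difference of E090 was 0.11. With *Ap1m1* all 7 fragments had the higher median in position 2, by 0.03 to 0.36. What share of the fragments of all loci did so was not counted.

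By orientation, 3 of the 7 fragments were called, with 24.1% of all 54 fragments higher in plus and 24.1% higher in minus orientation. E064 was more active in plus orientation in all 8 libraries (0.32 ± 0.05 SE, FDR 0.000257), most with *Lefty1*, where the replicates differed by 0.56, 0.54 and 0.43. Averaged over libraries, its boost index was 2.45 in plus and 2.29 in minus orientation in position 1, and 2.38 and 1.90 in position 2. The lowest of these 4 arrangements was thus minus orientation in position 2.

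E074 was also more active in plus orientation, in 7 of 8 libraries (0.12 ± 0.04 SE, FDR 0.0398). E065 was more active in minus orientation in 6 of 7 libraries (-0.21 ± 0.06 SE, FDR 0.0158), with mean boost indices of 0.43 in minus and 0.12 in plus orientation in position 2. The orientation calls of E065 and E074 were lost in the exact sign-flip test over libraries (FDR 0.0603 for each), and that of E074 also without replicate 3 (FDR 0.103). E071, E088 and E090 were nearly unmeasured in plus orientation in position 1, with 9, 7 and 12 EC combinations over all libraries, so that their differences between positions set both orientations in position 2 mostly against minus orientation in position 1.

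The activity expected of a pair under an additive model is the sum of both single-fragment activities, each in its position, minus the baseline. Of 28 possible unordered pairs 21 had a value, and 15 were measured in at least 6 libraries. Over promoters, 5 of the 15 were below the additive expectation and 0 above it at a 5% FDR (limma), while 8.71% of all 1366 pairs of the series were called lower and 20.3% higher. The median log2 of observed over expected activity was -0.09 over the 15 pairs and 0.15 over all pairs. Pairs of a *Nanog* fragment with one of another locus gave 40 lower and 50 higher calls of 280, with a median of 0.10, and this contrast was not tested. All 5 pairs called lower contain E073 or E074. With partners of other loci E073 and E074 also had medians below 0, at -0.075 and -0.10. Of those pairs 13 of 47 and 13 of 40 were called lower, and 2 and 4 higher. The other *Nanog* fragments tested in this way had medians of 0.11 to 0.22 with such partners.

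Among the 15 pairs measured in at least 6 libraries, E073 with E074, whose listed intervals overlap, fell furthest below the sum of its parts. With *Nanog* the pair had replicate boost indices of 1.66, 2.28 and 1.67 and a boost index of 1.94, where addition predicted 2.91 and the stronger fragment alone gave 2.35. The log2 of observed over expected was -1.13, -0.87 and -0.99 in the 3 replicates (SD 0.13), so the pair reached 0.497 of the expected activity. The 8 combinations with this promoter were all below expectation, from -1.35 to -0.84.

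Over promoters the pair averaged -0.77 ± 0.09 (SE, limma, FDR 0.000619), or 0.585 of the expected activity, and was below expectation in all 7 libraries, from -1.04 with *Sox2* to -0.52 with *Ap1m1*. Of its 46 combinations, 45 were below the additive expectation. With *Klf2*, *Lefty1*, *Nanog*, *Otx2* and *Tbx3* it was the lowest of the 15 pairs, with *Sox2* the lowest of the 11 measured there, and with *Ap1m1* it had rank 2 of 15. It had no value with *Fgf5*, and over promoters it had rank 14 from the lowest of all 1366 pairs. Pairs of the same fragments with other loci were among the lower ones, E074 with Klf2_E058 at -1.07 and E073 with Pou5f1_E084 at -0.89. The *Sox2* value rested on 1 combination, and among libraries with at least 2 the mean was -0.73.

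Adding the second of these fragments gave no gain that passed the test. The pair was below the stronger fragment alone in 6 of 7 libraries, with a mean log2 ratio of -0.14 ± 0.09 (SE, FDR 0.195), and of -0.24 to -0.028 with 1 replicate left out. With *Lefty1*, the exception, the pair had replicate boost indices of 4.65, 4.93 and 4.84, against 4.54 for the stronger fragment and 5.32 expected by addition. The deficit was present in both orders. It was -0.88 over 6 libraries with E073 in position 1 and -0.71 over 7 libraries with E074 in position 1, and the difference between orders was not tested. Across the 4 orientations the mean ranged from -0.85 with both fragments in minus to -0.59 with both in plus orientation. The expectation takes the median of each single fragment over both orientations. Differences between orientations of the single fragments therefore enter this range.

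Of the pairs of strong fragments that do not overlap, E073 with E090 and E064 with E074 were called below addition over promoters, whereas E064 with E073 (-0.21, FDR 0.0732) and E064 with E090 (0.07, FDR 0.552) were not. E073 with E090, 1 from each side of the gene, averaged -0.51 ± 0.10 (SE, FDR 0.0118) and was below expectation in all 6 libraries, from -0.81 with *Otx2* to -0.19 with *Tbx3*. With *Nanog* its replicates were -0.78, -0.64 and -0.80. The exact sign-flip test over these 6 libraries gave an FDR of 0.0779. With all 6 on the same side this is the lowest value the test can give a pair in 6 libraries, so it could not call this pair.

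E064 with E074 was below expectation in all 8 libraries (-0.41 ± 0.07 SE, FDR 0.00326) and in 62 of 64 combinations. Its replicates were -0.63, -0.58 and -0.62 with *Nanog* and -0.30, -0.24 and -0.34 with *Lefty1*. It nevertheless exceeded its stronger fragment in all 8 libraries, by 0.21 ± 0.06 (SE, FDR 0.0118) or 1.16-fold. By orientation the mean ranged from -0.64 with both fragments in minus to -0.21 with both in plus orientation. The expectation here too joins both orientations of each single fragment, and E064 and E074 alone were more active in plus. This range therefore does not show that the deviation from addition depends on orientation.

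E071 with E073 (-0.38 ± 0.09 SE, FDR 0.0224) and E065 with E074 (-0.24 ± 0.08 SE, FDR 0.0452) completed the 5 pairs called lower, and both calls were lost without replicate 1, which left 3. The former had 16 combinations over 6 libraries, of which 14 were below expectation. The latter was the 1 pair of the locus below its stronger fragment at a 5% FDR (log2 ratio -0.18 ± 0.06 SE, FDR 0.0240), in 7 of 8 libraries. With *Nanog* the pair of E065 and E074 had replicate boost indices of 1.30, 1.76 and 1.26, and the stronger single fragment had 1.79. Among all pairs, 4.03% were called below and 68.7% above the stronger fragment.

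The highest pairs were E065 with E071 (0.34 ± 0.15 SE, FDR 0.104), E064 with E071 (0.24 ± 0.09 SE, FDR 0.0574) and E065 with E088 (0.15 ± 0.09 SE, FDR 0.199), none of them called. E065 with E071 was at 0.19 without replicate 2, 0.57 without replicate 3 and 0.20 without *Fgf5*, and E065 with E088 at 0.058, 0.35 and 0.098 in the same settings, with no call in any. For E065 with E071 the highest value was that with *Fgf5*, where 1 combination gave 1.28 and the replicates spread from -1.94 to 3.10. With the other promoters it ranged from -0.20 to 0.55. E064 with E071 was above expectation in 7 of 8 libraries, and its replicates were 0.59, 0.55 and 0.61 with *Lefty1* but 0.03, -0.09 and -0.11 with *Nanog*.

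All 3 of these pairs exceeded their stronger fragment, by 0.51 ± 0.14 (SE, limma, FDR 0.00907) for E065 with E071, 0.54 ± 0.07 (FDR 0.000111) for E064 with E071 and 0.34 ± 0.07 (FDR 0.00139) for E065 with E088. With the replicate number as a block the first of these calls was lost (0.51, FDR 0.166), and without replicate 3 the gain of E065 with E088 was 0.54. The largest gain of the locus was that of E064 with E090, at 0.75 ± 0.14 (SE, FDR 0.00117), or 1.68-fold. This pair was close to additive only on average (0.07 ± 0.10 SE), and ranged from -0.26 with *Nanog* to 0.48 with *Fgf5*. With *Lefty1* it reached replicate boost indices of 4.89, 5.01 and 5.02 where addition predicted 4.55. In all, 7 of the 15 pairs were called above their stronger fragment.

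Across the 15 pairs, the ones with a higher expected boost index were further below expectation (Pearson's r = -0.71, Spearman's rho = -0.79). Over all 1366 pairs these values were -0.47 and -0.42. Pairs share single-fragment medians, and the expectation enters both quantities, so the points are not independent and no test was made.

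Deviations from additivity differed in sign between promoters. Tested in each promoter (limma), 35 of 125 pair-promoter values were below and 15 above the additive expectation. In the whole series the shares were 11.7% and 27.9% of 11020 values. The error of a pair was pooled over the replicates of all its libraries, so a promoter with a wider spread had no wider error. With *Nanog* all 15 pairs were below expectation (median -0.22), and 7 of the 16 values tested there, which include a pair measured in fewer libraries, were called lower and 0 higher, against 18.5% lower and 9.71% higher of all 1473 pairs with this promoter. With *Otx2* 12 of 15 were below, with *Klf2* 9 of 15 and with *Ap1m1* 10 of 15, and 0 values were called higher with any of these promoters. Among all pairs the shares called higher were also low there, at 9.12% with *Otx2*, 8.80% with *Klf2* and 4.08% with *Ap1m1*. The medians over all pairs were also below 0, at -0.022 with *Nanog*, -0.014 with *Otx2*, -0.0073 with *Klf2* and -0.040 with *Ap1m1*. What share of all pairs lay below expectation was not counted.

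The 15 higher calls all came from the 4 promoters with the lowest baselines, and 5 higher calls were made without replicate 1 and 9 without replicate 2. With *Fgf5* 5 of 9 values were called higher, against 73.1% of all pairs with that promoter, and with *Lefty1* 4 of 20, against 42.6%. With *Sox2* 3 of 12 were called higher, against 41.0% of all pairs, and with *Tbx3* 3 of 18, against 48.2%. With each of these promoters the share among *Nanog* pairs was below that of all pairs, and this difference was not tested. Of the higher calls with *Sox2*, those of E064 with E089 and E065 with E090 rested on 1 combination each. The higher calls of *Fgf5*, *Lefty1* and *Tbx3* include E064 with E071, E064 with E088 and E064 with E090. With *Fgf5*, E064 with E071, E065 with E088 and E065 with E090 were called although each had a replicate below expectation. The other pairs called there, E064 with E088 and E064 with E090, had all replicates above it. E064 with E090 was called higher with *Lefty1*, with replicates of 0.39, 0.50 and 0.38, and lower with *Nanog*, with replicates of -0.26, -0.08 and -0.38. The median over all pairs of the series was also higher with these promoters, at 0.24 with *Lefty1* and 0.63 with *Fgf5*, than with *Nanog*, at -0.02. The *Fgf5* values are limited by their baseline, which was 0.213 over the 23 CC combinations above 0, against 0.142 as deposited. A higher baseline lowers the additive expectation. The paper regards expectations that were too low with *Fgf5* as a likely inaccuracy of its sparse data.

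Under a multiplicative model, in which the expected activity is the product of both single activities over the baseline, 12 of the 15 pairs were called below expectation and 0 above, against 433 lower and 4 higher of all 1366 pairs. E073 with E074 was furthest below (-2.62 ± 0.41 SE, FDR 0.00154). Of the 125 pair-promoter values, 110 lay closer to the additive than to the multiplicative expectation. The share over all pairs of the series was not counted, and the paper reports a better fit of the additive model with most promoters. Only E065 with E071 had a mean above the multiplicative expectation among the 15 pairs (0.08 ± 0.18 SE), and it was not called.

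The 6 pairs measured in fewer than 6 libraries had 1 to 8 combinations per promoter. E074 with E090 was at -1.22 with *Ap1m1*, with replicates of -1.29, -1.12 and -1.24 from 2 combinations. From 1 combination each, it was at -0.72 with *Lefty1* (replicates -0.33, -0.61 and -1.27) and at 0.06 with *Tbx3* (replicates -0.33, 0.30 and 0.21). E088 with E090, both inside *Slc2a3*, was at 0.40 with *Lefty1* from 1 combination. E064 with E089 was above expectation with each of 3 promoters, from 0.20 to 0.49. The 0.49 with *Sox2* came from 1 combination, with 3 EC combinations of E089 behind its expectation. With *Lefty1* there were 3 combinations and 1 EC combination of E089. With *Klf2* 8 combinations gave 0.20, which was not called.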

How the data were processed

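The deposited table gives, for each combination and replicate, the activity ratio that the authors made by dividing cDNA by plasmid DNA barcode counts, both per total of the sample, and averaging over barcodes. Boost indices, log2 ratios of observed over expected activity and deviations that the authors deposited were not used. Combinations at 0 in any replicate, 13 of the *Nanog* EC combinations, were left out, and replicates were averaged geometrically. Depth is unknown, so no counting error is given. Calculations used limma 3.58.1 in R 4.3.3 and, for all else, scipy 1.17.1, pandas 2.3.3 and numpy 2.4.6 in Python 3.11.15, were tested on simulated data, and were fitted over all fragments and pairs of the series with Benjamini-Hochberg adjustment. Position and orientation tests needed 3 EC combinations per arrangement, and tests over libraries 6 libraries. In tests over libraries the libraries are the units, and in tests per promoter the 3 transfections of the same plasmids, which leave out the spread between plasmids. The error of a pair in tests per promoter is pooled over all its libraries. All 8 fragments were named, with the 3 highest and 3 lowest pairs, the overlapping pair and all 8 promoters. Other pairs were named after their values were seen. Members, lists and tests were chosen with earlier results of these data known. Coordinates and primers are from the study's supplementary files, and promoter sequence and genes from RefSeq (GRCm38.p6), in which *Nanog* was matched. Alternatives changed replicates, baseline, libraries, minimum numbers, expectations and tests.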

Additional observations from a re-analysis of the deposited data

Results flagged for a closer look

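Differences between promoters in the boost index of a single fragment passed the test of the difference itself for 5 fragments in *Ap1m1* minus the developmental promoters, with -2.13 for E064, -0.60 for E065, -2.56 for E074, -0.79 for E088 and -1.79 for E090. In *Nanog* minus the other developmental promoters they passed it for 4 fragments, with -1.08 for E064, -1.30 for E074, -0.65 for E088 and -0.91 for E090. Groups of 3 replicates were not searched for single samples that stand apart.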

How the results depend on the processing

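Of the single values recomputed under the alternatives, 315 kept their direction and their side of the threshold, 17 passed it under an alternative only, 10 no longer passed it and 3 changed sign. Under the multiplicative expectation 12 pairs were lower, and E065 with E088 moved to -0.10 and E064 with E071 to -0.56, by the construction of that expectation. E073 with E090 against its stronger fragment ranged from -0.034 to 0.20 when 1 replicate was left out. For the next values the cause was not tested. Leaving out 1 replicate gave 0 to 1 single-fragment values called lower, 1 to 2 fragments lower in position 2, 3 to 5 pairs below and 0 to 1 above the additive expectation, and 5 to 21 higher calls per promoter. Over all loci this gave 12 to 16 of 55 fragments lower in position 2. Of 1363 to 1366 pairs, 97 to 124 were below and 245 to 318 above addition. Higher calls per promoter were 2285 to 2841 of 11011 to 11060. With limma on each replicate 0 single-fragment values were lower. With the baseline over all control-control combinations, which drops *Fgf5*, and without *Fgf5*, 7 fragments were lower with *Nanog*, as were 42 and 41 of 55 fragments of all loci. The exact sign-flip test called 1 fragment lower in position 2, 1 higher and 0 lower in plus orientation, and 2 pairs below addition. Over all loci it called 13 of 55 fragments lower in position 2, and 10 of 54 higher and 11 lower in plus orientation. Among all 1366 pairs it called 105 below addition. Pairs measured in only 6 libraries could not be called by it, whatever their size. In position 1 alone, where 4 fragments could be tested, 1 was higher and 0 lower in plus orientation, against 7 higher and 5 lower of 38 fragments of all loci. Single fragments pooled over positions, or in the same orientation, or the authors' baseline, gave 1 pair above addition. Over all loci these settings gave 295 of 1367, 290 of 1362 and 422 of 1366 pairs above it.

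Replicate numbers are those of the labels, which do not say that a number marks a shared day across libraries. Same-numbered samples of different libraries correlated in their deviations by 0.36 on average (84 values, -0.23 to 0.82), and differently numbered ones by -0.18. Of 24 samples, 23 correlated best with their own number. Not every value was above 0.1, and by that rule the number was not taken as pairing in the main fits. Same-numbered samples still resembled each other, and the main fits over 24 library-replicates treat them as independent. With the replicate block 2 fragments were higher in position 2, E073 (0.12, FDR 0.0151) and E090 (0.17, FDR 0.0109), 1 pair was above addition and 5 below, and E065 with E071 was no longer called above its stronger fragment (0.51, FDR 0.166). Over all loci that setting gave 12 of 55 fragments higher in position 2. Of 1366 pairs it gave 376 above and 128 below addition. The settings without *Fgf5* for the *Nanog* promoter, position 1 alone and the authors' baseline were chosen after seeing the data. The number of barcodes behind a value is unknown, so no precision from counting can be given.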
